A study of Rattus norvegicus with 15 samples.

Results

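miR-184 is a microRNA of the kidney cortex whose mean level in these libraries was lowest on a salt-deficient diet, intermediate on the usual amount of salt and highest on a salt-rich diet. It is 1 of 600 miRNA names in the deposited count table and was taken by its name, rno-miR-184. It was selected on its read counts in these 15 libraries, since earlier results of the same table showed it low on 0.01% NaCl. Its levels over the diets are therefore given as a description, with standard errors and no p-value. Small RNA was sequenced from the cortex of PCK rats (PCK/CrljCrlPkhd1pck/CRL), rats whose kidneys become cystic through a mutation of Pkhd1, the gene of human recessive polycystic kidney disease. All rats carried that mutation, so no diet group stands for a healthy kidney. The rats came from a breeder at 4 weeks of age and ate Dyets chow with 0.01%, 0.4% or 4% NaCl from 6 weeks of age for 8 weeks, with no other treatment, and 5 libraries were listed for each diet. The labels also speak of 2 pools of 2 to 3 rats for each condition, which differs from 5 libraries, so the spread between libraries of a diet may be partly technical.

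miR-184 is a single-copy, conserved miRNA known from the cornea, the lens and the brain. A miRNA pairs through its seed, bases 2 to 8, with target mRNAs and lowers their output. In human corneal epithelium miR-184 is known to oppose miR-205 on the mRNA of SHIP2 (Inppl1), a phosphatase of the PI3K-Akt pathway, so that the balance of the pair sets SHIP2. In the kidney it has been studied in tubules of rats with diabetic nephropathy, where it has been linked to fibrosis. These are background facts and were not measured here.

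The sequences below show what was counted and let the seed be compared with that of miR-205 and of the miRNAs with the most similar pattern. They are RNA from RefSeq (build GRCr8), 5′ to 3′, with capitals for the seed.
miR-184: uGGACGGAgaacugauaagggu
miR-205: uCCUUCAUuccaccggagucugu
miR-592: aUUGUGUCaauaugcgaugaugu
miR-376c-3p: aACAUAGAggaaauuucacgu
miR-134-5p: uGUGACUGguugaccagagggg
None of the other 4 seeds is that of miR-184, and of 693 mature rat names with a RefSeq sequence no other shares its bases 2 to 8. The hairpin that gives rise to it lies on the minus strand at chr8:99222982-99223058 (GRCr8), with the mature miRNA in capitals at bases 47 to 68 of 77, on the 3′ arm.
mir-184 hairpin: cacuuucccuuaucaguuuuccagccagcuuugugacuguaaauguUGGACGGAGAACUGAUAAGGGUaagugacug
RefSeq places the hairpin inside no annotated gene, with Ankrd34c and Rasgrf1 as the neighbouring protein-coding genes and no other miRNA gene within 50 kb. In the mouse brain both Rasgrf1 and miR-184 are known to be expressed from the paternal allele. Alleles were not measured here. Among the 519 names that passed the read filter, no other kept a fixed ratio to miR-184. The steadiest, miR-376c-3p, had an SD of 0.59 for the log2 ratio over 15 libraries.

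Libraries held 4167498 to 7826411 counted reads, and names of other species took 8.05 to 15.8% of them. The tubule markers miR-192-5p, miR-194-5p, miR-204-5p and miR-30a-5p, all 4 detected, together reached 92040 to 138100 scaled CPM (reads scaled to a common library size with TMM factors) over all libraries. In bulk tissue, fewer cells that make a miRNA and less of it per cell cannot be told apart.

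On 0.01% NaCl the 5 libraries held 34, 33, 36, 43 and 40 miR-184 reads. Scaled to library size they were 6.51, 5.68, 5.99, 6.66 and 6.54 scaled CPM, with a mean of 6.28 ± 0.42 (SD, n = 5). The group was tight, and no library of it reached the lowest scaled CPM of another diet.

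On 0.4% NaCl there were 85, 97, 93, 43 and 142 reads. These were 15.4, 12.9, 18.7, 7.79 and 23.1 scaled CPM, with a mean of 15.6 ± 5.78 (SD, n = 5). Library 4 lay lowest, near the salt-deficient group, and library 5 highest.

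On 4% NaCl there were 164, 216, 49, 179 and 106 reads. These were 28.7, 36.6, 8.93, 38.9 and 22.9 scaled CPM, with a mean of 27.2 ± 12.1 (SD, n = 5). Library 3 stood well below the other 4 and within the range of the 0.4% diet. The exact 95% Poisson intervals of its 49 reads (36.3 to 64.8) and of the next lowest count, 106 reads (86.8 to 128.2), did not overlap; such intervals cover counting error only. Library sizes ran the other way, being largest on 0.01% and smallest on 4% NaCl on average, and the order of the diets was the same in raw reads, which summed to 186, 460 and 714.

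**Figure D1:**
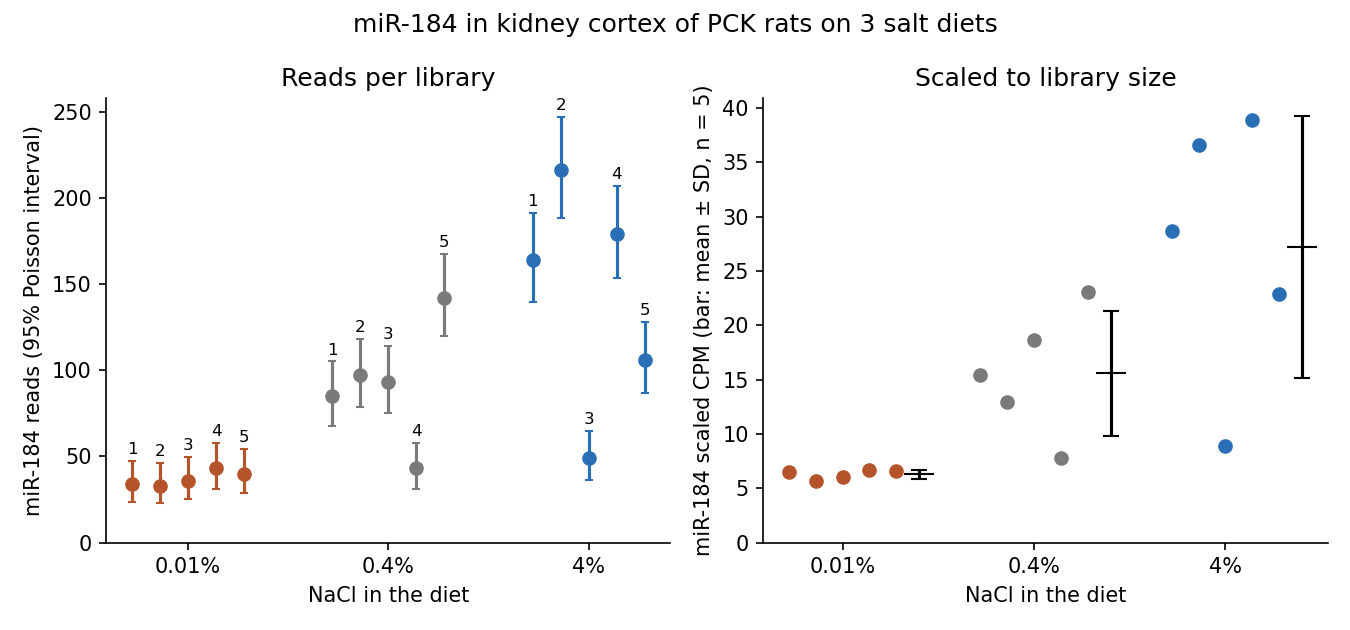
Reads of miR-184 in each library with exact 95% Poisson intervals (left, numbers are libraries) and the same values as scaled CPM with mean ± SD of 5 libraries (right), by NaCl in the diet. The 5 libraries on 0.01% NaCl sit between 5.68 and 6.66 scaled CPM, below every library of the other diets, while 0.4% (7.79 to 23.1) and 4% (8.93 to 38.9) overlap.

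In edgeR's fit over all 519 tested names miR-184 was 2.48-fold higher on 0.4% than on 0.01% NaCl. This is a log2 difference of -1.31 ± 0.34 (SE) for 0.01% minus 0.4%. By the same fit it was 4.32-fold higher on 4% than on 0.01%, a log2 difference of -2.11 ± 0.34 for 0.01% minus 4%. Between the upper diets the log2 difference was 0.80 ± 0.32 for 4% minus 0.4%. These standard errors rest on a single estimate of spread for miR-184, shared by the 3 diets. The diets' own SDs of log2 CPM (prior count 2) were 0.09, 0.58 and 0.84 from 0.01% to 4% NaCl. The error between the upper diets may thus be understated. In scaled CPM the salt-deficient libraries did not overlap those of either other diet. The closest pair was library 4 of the 0.01% diet (6.66) and library 4 of the 0.4% diet (7.79). Both held 43 reads, with an exact 95% Poisson interval of 31.1 to 57.9. Against 0.4% NaCl 14.5% of all tested names were free of overlap, 6.94% being higher and 7.51% lower on 0.01%, and against 4% NaCl 14.6% were, 5.01% higher and 9.63% lower. Since miR-184 was chosen with these values known, nothing is read from those shares. Of the 5 libraries on 4% NaCl, 3 lay above all 5 on 0.4%, and the sets overlapped; 0.771% of names were free of overlap there, 0.578% higher and 0.193% lower on 4%. Ranked from the most negative value, miR-184 was at place 32 of 519 for 0.01% minus 0.4% and at place 7 for 0.01% minus 4%, and ranked from the highest it was at place 13 for 4% minus 0.4%. In the order of mean levels it moved from place 372 on 0.01% to 305 on 0.4% and 258 on 4% NaCl. The comparisons share libraries and are not separate evidence. With library totals in place of TMM the median log2 difference of all names was -0.192 for 0.01% minus 0.4%, where TMM gave -0.003, and -0.246 for 0.01% minus 4%, where TMM gave -0.01, and the calls were 25 higher and 79 lower, and 14 higher and 117 lower, against 40 and 47, and 38 and 68, with TMM. miR-184 then stood at -1.48 and -2.36.

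Whether this is a grade or a step depends on the 0.4% group. The 0.4% level lay 0.25 ± 0.28 (SE, log2) above the midpoint of the other diets, a distance smaller than its standard error, where a full step at 0.01% would put it near the 4% level. Of the log2 difference between 0.01% and 4% NaCl, 61.9% lay between 0.01% and 0.4% and 38.1% between 0.4% and 4%. The first interval is a 40-fold change in salt and the second a 10-fold change. Per 10-fold rise in NaCl, the fitted log2 difference was 0.82 ± 0.21 (SE) over the first interval and 0.80 ± 0.32 over the second. A straight line over log10 NaCl took up 68.5% of the variance of log2 CPM (prior count 2) over 15 libraries, as much as separate means for the diets (68.5%) to that precision. A line over diet order took up 67.1%, a single step at 0.01% took up 58.9% and a single step at 4% took up 42.5%. Without library 3 of the 4% diet these were 85.7% for the line over log10 NaCl, 86.6% for diet order, 67.3% for the step at 0.01% and 60.1% for the step at 4%. No other library was left out of these models, and library 3 is the lowest of its diet, so its removal raises the 4% mean. Leaving out the lowest library of the 0.4% diet, library 4, moved the 0.4% level further from the midpoint, to 0.43. By the means over all 15 libraries the pattern lay closer to a grade than to a step at 0.01%, with libraries on 0.4% and 4% NaCl that overlap. This describes the values on which miR-184 was chosen and is no test of shape. The models and standard errors also treat the spread as equal in the 3 diets, which it was not.

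The size of the second interval rests on few libraries. Leaving out 1 library at a time, the log2 difference 4% minus 0.4% ran from 0.63 (without library 4 of the 4% diet) to 1.04 (without library 3 of that diet). The distance of the 0.4% level from the midpoint ran from 0.07 without library 5 of the 0.4% diet to 0.43 without library 4 of that diet. The difference 0.01% minus 0.4% ran from -1.50 to -1.14.

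The second interval was also set beside those of other names. edgeR's quasi-likelihood test called 106 of 519 names between 0.01% and 4% NaCl (20.4%). In 6 of these the 4% minus 0.4% difference continued in the same direction by at least 0.80 on the log2 scale. The 6 include miR-184, whose own value set that cutoff and which was chosen on these data. Its place among them is therefore not a result. The median absolute log2 difference of the 106 was 0.986 for 0.01% minus 4% and 0.191 for 4% minus 0.4%. The 106 were picked through the 4% libraries, which enter both differences and favour a continued direction. Between 4% and 0.4% NaCl, 0 of 519 names (0%) passed in edgeR with Benjamini-Hochberg adjustment, where 27 had an unadjusted p under 0.05. DESeq2 and limma-voom also called 0 there, with 33 and 27 names at an unadjusted p under 0.05.

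**Figure D2:**
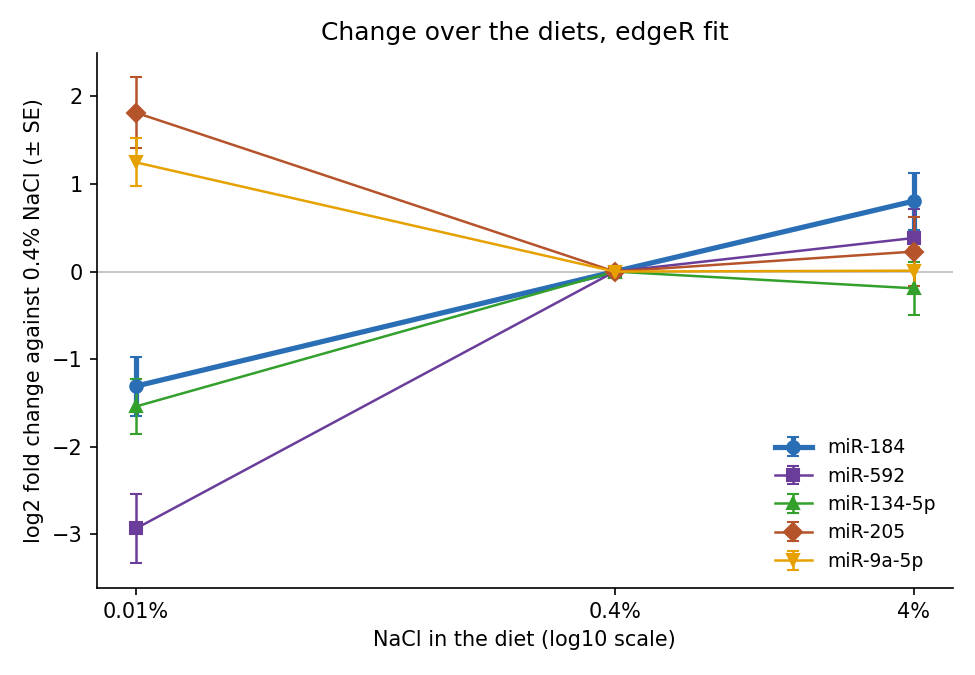
Fitted log2 fold change against 0.4% NaCl (± SE, edgeR) for 5 miRNAs, plotted over NaCl on a log10 axis. miR-184 runs close to a straight line from -1.31 to 0.80, whereas miR-205, miR-9a-5p and miR-134-5p differ at 0.01% and lie between -0.19 and 0.23 at 4%.

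The spread of miR-184 also differed between diets. Its coefficient of variation (CV, the SD as a share of the mean) was 6.68% on 0.01%, 37.1% on 0.4% and 44.3% on 4% NaCl in scaled CPM. The raw reads had CVs of 11.3%, 38.3% and 46.0%, beside 16.4%, 10.4% and 8.37% that counting error alone gives at these means. The CV of the reads was below the counting value on 0.01% NaCl and above it on the other diets. Among 56 other names within 0.5 log2 CPM of its mean, the median CV was 24.9%, 24.3% and 23.1% in the same order. Of these 56, 1 had a lower CV than miR-184 on 0.01%, 47 on 0.4% and 49 on 4% NaCl. The 5 names nearest in abundance (miR-340-3p, miR-451-5p, miR-674-5p, miR-30b-3p and miR-499-3p) had CVs of 15.9 to 46.1% on 0.01% NaCl.

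**Figure D3:**
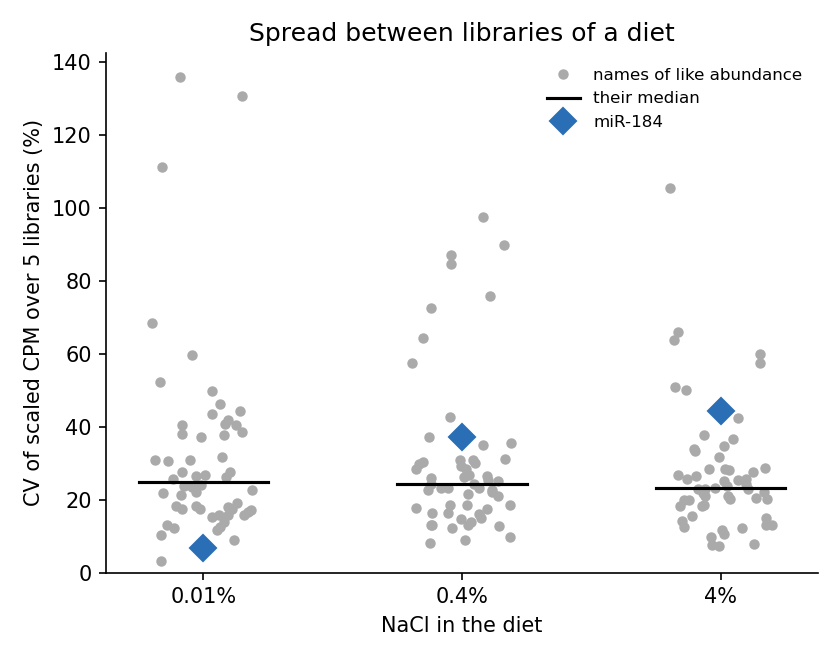
CV of scaled CPM over the 5 libraries of each diet for miR-184 (diamond) and for 56 names of like abundance (grey, bar at their median). miR-184 lies near the bottom on 0.01% NaCl at 6.68% and in the upper part on 0.4% and 4% NaCl at 37.1% and 44.3%.

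The libraries with the lowest miR-184 on the upper diets were also the richest of their diets in leukocyte and erythroid markers. The summed level of miR-142-3p, miR-150-5p and miR-223-3p, miRNAs of white blood cells, all 3 detected, was 1597 scaled CPM in library 4 of the 0.4% diet, where the diet ran from 724.6 to 1597. It was 2590 in library 3 of the 4% diet, where the range was 931 to 2590. On 0.01% NaCl it ran from 945.4 to 1229, with 965.6 in the library lowest in miR-184 and 1105 in the highest. In the library highest in miR-184 it was 1108 on 0.4%, above that diet's median of 823. On 4% NaCl it was 1605 there, below that diet's median of 1737. The erythroid markers miR-451-5p and miR-144-3p, both detected, summed to 61.1 in library 4 of the 0.4% diet (range 5.04 to 61.1) and to 18.0 in library 3 of the 4% diet (range 7.99 to 18.0). On 0.01% NaCl the erythroid sum ran from 9.32 to 34.4, with 27.04 in the library lowest in miR-184 and 16.42 in the highest. In the library highest in miR-184 it was 5.04 on 0.4%, the lowest of that diet. On 4% NaCl it was 14.57 there, above that diet's median of 11.35. By diet, the median leukocyte sum was 983, 823 and 1737 scaled CPM from 0.01% to 4% NaCl, but its markers did not move together. The mean of miR-150-5p was 688, 755 and 1481 scaled CPM in that order, whereas miR-142-3p had 254.5, 170.0 and 239.7 and miR-223-3p had 103.3, 80.6 and 97.2, both highest on 0.01% NaCl. The tubule sum of these libraries was 92820 in library 4 of the 0.4% diet, the lowest of that diet, and 99180 in library 3 of the 4% diet, the median of that diet. The surface epithelium markers miR-205 and miR-203a-3p, both detected, ran from 310.6 to 528 on 0.01%, 361.2 to 780 on 0.4% (417.4 in library 4) and 368 to 675.7 on 4% NaCl (675.7 in library 3). This sum was mostly miR-203a-3p, and its markers moved apart. From 0.01% to 4% NaCl the means of miR-203a-3p were 290.3, 506.5 and 465.4 scaled CPM, and those of miR-205 were 96.5, 27.4 and 32.1. The neuron markers miR-9a-5p and miR-138-5p summed to 179.4 in library 4 of the 0.4% diet (range 114.4 to 279). In library 3 of the 4% diet they summed to 295.4, the highest of that diet (range 182.1 to 295.4). The part of any of these cell types in the miR-184 values was not tested.

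miR-205, an epithelial miRNA and the known counterpart of miR-184, ran in the other direction on the low-salt side. Its scaled CPM were 78.6, 98.7, 86.2, 40.1 and 179 on 0.01% NaCl. They were 22.8, 43.6, 19.5, 29.7 and 21.3 on 0.4% NaCl. On 4% NaCl they were 46.9, 33.7, 37.7, 32.2 and 9.93. Only library 4 of the 0.01% diet lay among the values of the other diets, which overlapped each other. The means were 96.5 ± 50.9, 27.4 ± 9.87 and 32.1 ± 13.6 (SD, n = 5 each), and the log2 difference for 4% minus 0.4% was 0.23 ± 0.40 (SE), smaller than its standard error.

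The log2 ratio of miR-205 to miR-184 (log2 CPM, prior count 2) was 3.53, 4.04, 3.77, 2.53 and 4.70 in the 0.01% libraries. It was 0.56, 1.73, 0.06, 1.89 and -0.12 on 0.4% NaCl. It was 0.70, -0.12, 2.04, -0.27 and -1.18 on 4% NaCl. Every salt-deficient library lay above every other one. The diet means were 3.71 ± 0.793, 0.82 ± 0.932 and 0.23 ± 1.21 (SD, n = 5 each). Without library 3 of the 4% diet that diet's mean was -0.22. Both miRNAs were picked with their diet differences known, so the ratio is a description. Pearson's r between the pair was -0.62 over the 15 libraries and -0.14 over deviations from the diet means. SHIP2 was not measured.

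**Figure D4:**
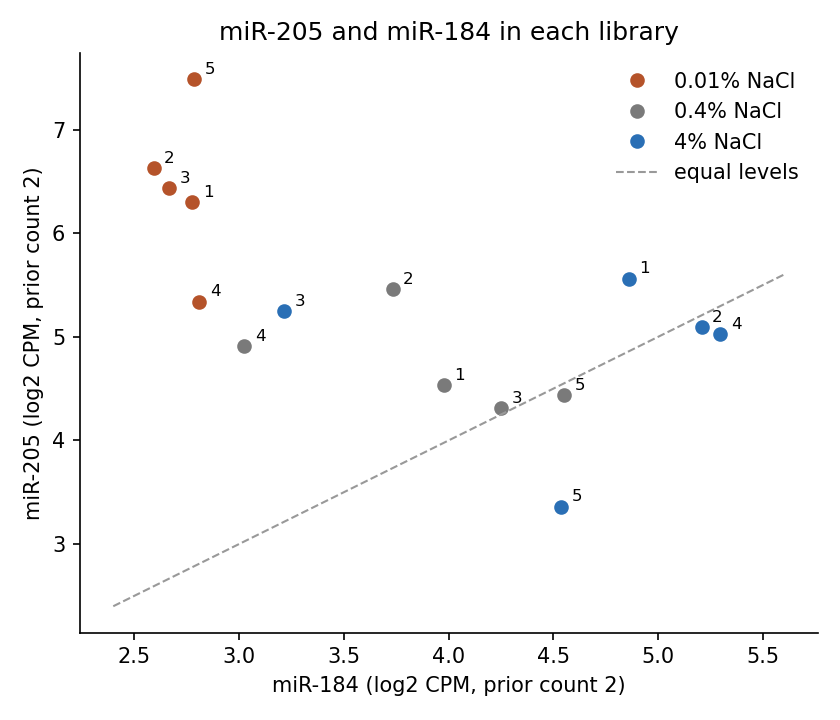
miR-205 against miR-184 in each library (log2 CPM, prior count 2; numbers are libraries; dashed line, equal levels). The 5 libraries on 0.01% NaCl form a separate group with high miR-205 and low miR-184, with ratios of 2.53 to 4.70, and the next highest ratios are those of library 3 of the 4% diet, 2.04, and library 4 of the 0.4% diet, 1.89.

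Other miRNAs that share tissues with miR-184 were read from lists. Of 11 surface epithelium miRNAs listed 10 were tested, and 5 rose and 4 fell on 0.01% against 0.4% NaCl, where 16.8% of all names were called, 7.71% higher and 9.06% lower, and the list's median was 1.05 where that of all names was -0.003 (log2). miR-205 rose (1.81 ± 0.40, adjusted p = 0.00558), and the skin miRNAs miR-203a-5p (-1.65 ± 0.30, adjusted p = 0.00226), miR-203b-3p (-1.42 ± 0.23, adjusted p = 0.00143) and miR-203b-5p (-1.37 ± 0.25, adjusted p = 0.00245) fell in edgeR's test. The same counts, 5 and 4, were found against 4% NaCl, beside 7.32% and 13.1% of all names, and 0 of 10 passed for 4% against 0.4%. The list thus moved both ways. All 4 names that fell were of miR-203, the remaining one being miR-203a-3p (-0.80 against 0.4% NaCl). Beside miR-205, the called members that rose were miR-31a-5p (1.06 against 0.4% NaCl), miR-200c-3p (1.17), miR-141-3p (1.04) and miR-141-5p (1.23). miR-203a and miR-203b are neighbours on opposite strands, so their reads may not be separate. miR-141-3p and miR-141-5p are arms of the same hairpin, so the rises are not all separate either.

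Of 12 miRNAs of lens, retina and other eye tissue 6 were tested, and 0 passed in any of the comparisons in edgeR, beside 16.8%, 20.4% and 0% of all names for 0.01% against 0.4%, 0.01% against 4% and 4% against 0.4% NaCl. Their medians were -0.38, -0.17 and -0.10 (log2) for 0.01% minus 0.4%, 0.01% minus 4% and 4% minus 0.4%. Those of all names were -0.003, -0.01 and -0.023. Members of the miR-183, miR-96 and miR-182 cluster had SEs of 0.45 to 0.51 for 0.01% minus 0.4%. Differences smaller than that could hardly be called in them, and they may not be separate. Of 21 neural and endocrine miRNAs 14 were tested, and 1 rose on 0.01% against 0.4% NaCl, miR-9a-5p (1.25 ± 0.27, adjusted p = 0.00513 in edgeR), a share near the 7.71% of all names that were higher, and 0 fell, beside 9.06%. Against 4% NaCl 2 of 14 rose, miR-9a-5p and miR-598-3p (0.54 ± 0.18, adjusted p = 0.0483), and 1 fell, miR-219a-2-3p, so that the share called was near the 20.4% of all names (7.32% higher, 13.1% lower). The last had 1, 50 and 52 reads summed over the 0.01%, 0.4% and 4% libraries. The calls of miR-598-3p and miR-219a-2-3p were lost in 13 and 9 of 15 refits without 1 library. The neuron markers fixed were miR-124-3p, miR-9a-5p and miR-138-5p, of which the last 2 were tested. Their sum ran from 274.5 to 597 scaled CPM on 0.01%, 114.4 to 279 on 0.4% and 182.1 to 295.4 on 4% NaCl. Nearly all of that sum was miR-9a-5p, with means of 445.1, 187.7 and 189 scaled CPM, beside 26.6, 22.3 and 28.6 for miR-138-5p. The median of the 14 tested neural and endocrine miRNAs was 0.03 for 0.01% minus 0.4% and -0.01 for 0.01% minus 4% (log2), close to those of all names, -0.003 and -0.01.

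Of 20 miRNAs known from kidney injury or fibrosis 19 were tested, and 3 rose and 4 fell on 0.01% against 0.4% NaCl, beside the same 7.71% and 9.06%, with a median of 0.09 (log2). Leaving out library 3 of the 0.01% diet gave 4 calls, library 5 of the 0.4% diet 3 and library 5 of the 4% diet 12. miR-377-3p fell (-2.28 ± 0.45, adjusted p = 0.00279) on 14 and 71 summed reads, as did miR-382-5p (-1.46 ± 0.39, adjusted p = 0.0148, lost without library 5 of the 0.4% diet), and miR-21-5p, known from injured kidney, rose (0.83 ± 0.26, adjusted p = 0.0362) in edgeR's test. The call of miR-21-5p was lost in 7 of 15 refits without 1 library. Against 4% NaCl 2 rose, miR-21-5p and miR-21-3p (1.15 ± 0.29, adjusted p = 0.012), and 4 fell, beside 7.32% and 13.1% of all names. Of 10 erythroid and leukocyte miRNAs 8 were tested, and 0 passed against 0.4% NaCl in edgeR, beside 16.8% of all names. Against 4% NaCl 1 of the 8 fell, a share near the 13.1% of all names that were lower, namely the lymphocyte miRNA miR-150-5p (-1.11 ± 0.32, adjusted p = 0.0247), a call lost without library 1 or 5 of the 0.01% diet or library 3 of the 4% diet. miR-150-5p is thus another name with its highest mean on 4% NaCl, 1481 ± 509 scaled CPM beside 755 ± 358 on 0.4% and 688 ± 178 on 0.01% (SD, n = 5 each).

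The names with a pattern most like miR-184 were sought by Pearson's r of log2 CPM over 15 libraries, among 519 tested names and with no test. They were miR-592 (r = 0.84), miR-107-5p (0.83), ssc-miR-1285 (0.80), miR-376c-3p (0.80) and miR-134-5p (0.79). miR-107-5p is the minor strand of the miR-107 hairpin, ssc-miR-1285 is a pig name, and miR-376c-3p and miR-134-5p belong to the imprinted Dlk1-Dio3 cluster. By Spearman's rho, 3 of these 5 were again among the highest 5. All 15 points share the diet differences, and over deviations from the diet means r was 0.42, 0.42, 0.43, 0.64 and 0.59 in the same order.

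Of these, miR-592, miR-376c-3p and miR-134-5p had log2 differences of -2.93, -1.66 and -1.54 for 0.01% minus 0.4% NaCl, and of 0.38 ± 0.33, -0.04 ± 0.36 and -0.19 ± 0.30 (SE) for 4% minus 0.4%. Their values for 4% minus 0.4% were thus close to or below the standard error, against 0.80 ± 0.32 for miR-184. miR-107-5p (0.27 ± 0.19) and ssc-miR-1285 (0.20 ± 0.15) had positive values above their standard errors for 4% minus 0.4%. For 0.01% minus 0.4% they had -0.37 ± 0.19 and -0.42 ± 0.15. Both thus rose over each interval, as miR-184 did, by smaller amounts. A graded order of the diet means was therefore not particular to miR-184. The opposite pattern was led by miR-181d-5p (r = -0.75), mmu-miR-676-5p (-0.72), miR-301b-3p (-0.71), miR-9a-5p (-0.71) and miR-143-5p (-0.71), the last being the minor strand of the smooth muscle miRNA miR-143. Over deviations from the diet means the highest r were those of mmu-miR-690 (0.69), miR-218a-1-3p (0.67), miR-376c-3p (0.64), miR-196b-5p (0.64) and hsa-miR-3607-3p (0.60).

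**Figure D5:**
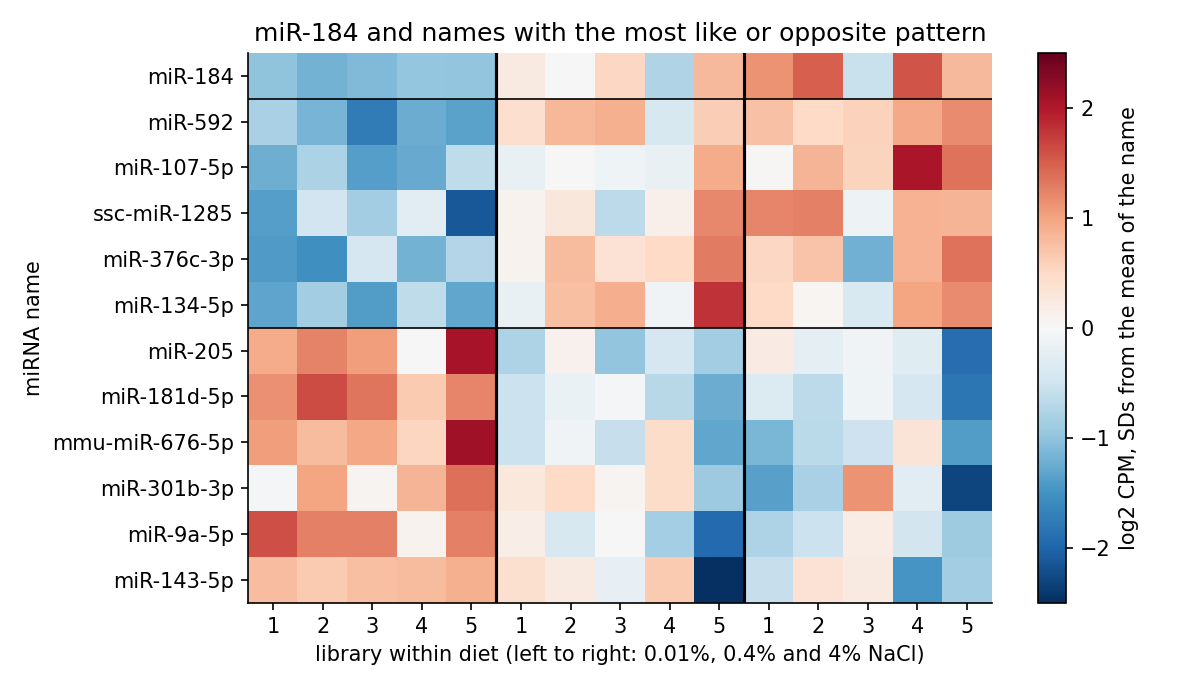
log2 CPM in each of 15 libraries, as SDs from the mean of the name, for miR-184, the 5 names with the highest r to it, miR-205 and the 5 names with the lowest r. The low values of miR-184 in all 5 libraries on 0.01% NaCl recur in the 5 names under it, whereas its low value in library 3 of the 4% diet recurs most clearly in miR-376c-3p.

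The authors' deposited table gives log2 fold changes for miR-184 from their own tools. For 0.4% over 0.01% NaCl the authors' deposited table has 1.30 by DESeq, 1.08 by DESeq2 and 1.28 by edgeR. For 4% over 0.01% the authors' deposited table has 2.09, 1.59 and 2.11. The heading over the DESeq values of that comparison names the 0.4% libraries, although the counts under it are those of the 4% libraries. For 0.4% over 4% the authors' deposited table has -0.78, -0.31 and -0.78. The direction is that of the values above in all 9 entries, and DESeq2 gave the smallest size each time.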

How the data were processed

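The authors deposited raw read counts for 600 named mature miRNAs (445 from rat, 155 from other species). Per the labels, the submitters' processing notes list the tools cutadapt, Bowtie and DESeq; the sources used here give no versions, genome build or miRNA database. The authors' deposited tables of log2 fold changes are quoted where named, and 90 per-sample columns in them were left out. Groups are the labelled diets.

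In R 4.3.3, edgeR 4.0.16 took 519 names past filterByExpr, scaled libraries by TMM and fitted a robust quasi-likelihood model to the 3 diets together, leaving 12 residual degrees of freedom. Calls need an adjusted p (Benjamini-Hochberg, all tested names) under 0.05. A prior count of 2 was used for log2 CPM. DESeq2 1.42.0, limma 3.58.1 (voom), other scalings and filters, and leaving out each library were alternatives. The fit was tested on simulated data. Depth ran from 4167498 to 7826411 reads per library, and a miR-184 count of 34 has an exact 95% interval of 23.5 to 47.5.

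miR-184, the lists and the tests were chosen with earlier results of these data known. Named are miR-184, miR-205, up to 4 called members of each list (all called members for surface epithelium), and the names most and least like miR-184 or nearest in abundance, 5 of each. Replicate numbers follow the order of deposit and pair nothing.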

Additional observations from a re-analysis of the deposited data

Results flagged for a closer look

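Of 39 sets of 5 libraries checked (13 named miRNAs in each diet), 5 held a library far from the other 4, and chance gives about 1 in 20 sets. None of them was a set of miR-184, whose largest gap was that of library 3 on 4% NaCl, 0.465 of the range where 0.71 would be needed. miR-203a-5p was 15.9 scaled CPM in library 4 of the 0.01% diet, where the others ran from 5.99 to 8.51. miR-203b-5p was 144.3 in library 1 of the 0.4% diet, where the others ran from 71.9 to 90.3. miR-219a-2-3p was 0.164 in library 5 of the 0.01% diet, a single read, with none in the others. miR-377-3p was 3.90 in library 5 of the 0.4% diet, where the others ran from 1.81 to 2.21. miR-21-5p was 9655 in library 5 of the 4% diet, where the others ran from 24130 to 28200.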

How the results depend on the processing

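No paired analysis was possible because the labels number no replicates. Over 15 other settings each, the log2 difference of miR-184 ran from -1.48 to -1.12 for 0.01% minus 0.4% NaCl, from -2.36 to -1.82 for 0.01% minus 4% and from 0.70 to 0.88 for 4% minus 0.4%, with no change of sign. Its mean on 0.01% NaCl was 5.71 scaled CPM with library totals and 7.12 without names of other species. With a mean of at least 10 CPM required, 55 names were called for 0.01% minus 0.4%. Of the 5 names most like miR-184, 3 stayed by Spearman's rho.

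Counts of called list members moved as follows, and the cause was not tested. For neural and endocrine miRNAs, 0.01% minus 0.4% gave 2 with DESeq2 size factors, at 10 CPM, without the 5 most abundant names or leaving out from every diet the library with the largest share of other-species reads, 3 without names of other species or with only the compared diets, and 5 with library totals or DESeq2. Against 4% NaCl they gave 5 with DESeq2 and 1 without those richest libraries. Eye miRNAs gave 1 against 4% NaCl with upper-quartile factors, library totals, 10 CPM, DESeq2 or without names of other species, and 1 against 0.4% with DESeq2. Erythroid and leukocyte miRNAs gave 1 against 0.4% with DESeq2 or only the compared diets. Injury miRNAs gave 4 against 0.4% without the richest libraries.

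With 1 library left out, the differences of miR-184 ran from -1.50 to -1.14, -2.36 to -1.96 and 0.63 to 1.04. Its means ran from 6.14 to 6.42, 13.6 to 17.4 and 24.2 to 32.0 scaled CPM, and its distance from the midpoint from 0.07 to 0.43. The log2 ratio of miR-205 to miR-184 ran from 3.46 to 4.01, 0.56 to 1.06 and -0.22 to 0.59. Names called ran from 69 to 107, 74 to 123 and 0 to 0. Called members against 0.4% and 4% NaCl ran from 9 to 10 and 7 to 9 (surface epithelium), 0 to 1 and 0 to 1 (eye), 1 to 3 and 1 to 3 (neural), 3 to 12 and 4 to 6 (injury), and 0 to 1 and 0 to 1 (erythroid and leukocyte). At 33 to 216 reads per library, counting error alone limits how finely miR-184 can be compared.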
